A study of Mus musculus with 29 samples.

Results

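A set of 10 genes of the antioxidant and metal-binding response was followed in mouse liver, namely Nfe2l2, Nqo1, Hmox1, Gclc, Gclm, Txnrd1, Srxn1, Cat, Mt1 and Mt2. They were chosen by name, as the NRF2 gene itself, a set of its known targets and the hepatic metallothioneins. All 10 were found among the 55421 genes counted, and all 10 passed the filter on low counts in every comparison. Their levels are CPM, that is, reads on the gene scaled to the reads counted on all genes of the mouse and adjusted between libraries.

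NRF2, the protein of Nfe2l2, is a transcription factor that is held in the cytoplasm and marked for degradation by KEAP1. Oxidants and electrophiles release it, and with small MAF proteins it binds antioxidant response elements in the promoters of genes for detoxification, glutathione and thioredoxin. The metallothioneins are small cysteine-rich proteins that bind zinc and copper, and liver is a major site of their expression. Their genes are read through metal response elements by the zinc sensor MTF1, and glucocorticoids and inflammatory signals also raise them.

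Polyadenylated RNA of whole liver was sequenced in mice of both sexes. Old females of 20 months and old males of 24 months, both C57BL/6J, received vehicle or HDM201, an inhibitor that blocks the binding of MDM2 to p53, at 10 mg/kg by gavage every day for 14 days. Young vehicle mice were 5 months old and are labelled C57BL6/N, so that age and substrain cannot be told apart, and the old females and old males differ in age. Counts were available for 27 mice, with 5 young vehicle, 4 old vehicle and 5 old HDM201 females and 4 young vehicle, 4 old vehicle and 5 old HDM201 males. A further old vehicle male and a further young vehicle male, numbered 1 and 5, had FPKM values (fragments scaled by transcript length and library size) and no counts. The study's methods left a young male out of analysis for an open wound and suspected infection, and no source used here says whether it is young vehicle male 5. No source states that mice of a group came from separate cages or litters, so p-values measure the spread between these animals.

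Between 16485900 and 23570458 reads were counted on genes per mouse, with a median of 19149235. The 7 hepatocyte markers were abundant in every mouse, and Xist and the Y-linked genes matched the labelled sex. Nnt, which carries a deletion in C57BL/6J, had 2.24 to 4.42 CPM in young mice and 1.27 to 3.44 CPM in old mice by counts, which overlapped. In FPKM Nnt had 6.68 to 11.8 in the 5 young males and 3.54 to 5.27 in the 5 old vehicle males, without overlap. Its FPKM in females and in old HDM201 males is not given here. A further entry of the same gene name had no counts in any group. Mdm2, a p53 target, was higher with HDM201 in old females (log2 fold change 0.33 ± 0.08 (SE), edgeR FDR = 0.035) and not called in old males (log2 fold change 0.00 ± 0.08 (SE), edgeR FDR = 0.998). Cdkn1a, the other p53 target taken as a check of the drug, was not called with HDM201 in old females or in old males. Its own values are not given here, and not called does not mean unchanged. The check genes are Nnt, Xist, the Y-linked genes, Mdm2 and Cdkn1a. With HDM201 the 4 tested in old females had log2 fold changes of 0.12 to 0.33. The 7 tested in old males ran from -0.28 to 2.26, with 0 called.

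Levels between genes are compared per length, as FPKM, over the 27 mice with counts. Cat, the catalase gene, was the highest by median at 614 to 1121 FPKM with a median of 940.4. Mt1 (24.1 to 2286 FPKM) and Mt2 (7.06 to 1585 FPKM) came next by median, and both ranges held those of Cat, Gclm, Gclc and Txnrd1. The range of Mt1 lay wholly above those of Srxn1 and Nqo1. Gclm had a median of 137 FPKM, Gclc of 64.97, Txnrd1 of 43.3 and Nfe2l2 of 32.7. Hmox1 and Srxn1, with medians of 12.2 and 11.8 FPKM, overlapped in range and were not ordered by these data. Nqo1 was the lowest by median, at 6.33 FPKM, and its range of 2.37 to 12.2 FPKM overlapped both.

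The promoters of the metallothionein pair are shown because these 2 genes varied most between mice and moved together. The genes are neighbours on chromosome 8 of GRCm38.p6, with Mt2 at chr8:94172664-94173568, + strand, and Mt1 at chr8:94179082-94180327, + strand, 5514 bases further on. The sequences are RefSeq promoters, from 250 bases before to 50 bases after the start annotated in RefSeq. That start can differ from the gene coordinates, which are from GENCODE, as the Mt2 window ends at 94172667 and the gene begins at 94172664. Capitals mark the letters of the metal response element core, searched as TGCACNC or TGCGCNC on both strands.
Mt2 (chr8:94172368-94172667, + strand): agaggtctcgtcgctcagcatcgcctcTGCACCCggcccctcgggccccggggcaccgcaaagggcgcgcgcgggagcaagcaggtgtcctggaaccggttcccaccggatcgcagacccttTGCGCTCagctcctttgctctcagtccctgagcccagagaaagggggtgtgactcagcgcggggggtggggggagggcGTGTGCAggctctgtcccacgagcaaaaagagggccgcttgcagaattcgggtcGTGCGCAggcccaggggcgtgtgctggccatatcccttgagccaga
Mt1 (chr8:94178839-94179138, + strand): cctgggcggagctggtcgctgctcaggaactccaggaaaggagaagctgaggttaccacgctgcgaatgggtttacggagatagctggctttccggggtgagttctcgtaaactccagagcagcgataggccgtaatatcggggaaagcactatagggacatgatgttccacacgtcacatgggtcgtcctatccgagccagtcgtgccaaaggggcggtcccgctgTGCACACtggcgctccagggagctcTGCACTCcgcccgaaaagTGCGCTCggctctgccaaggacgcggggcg

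Mt2 held 4 matches and Mt1 held 3. Of 32851 RefSeq promoters of the same length, 25.7% held at least 1 match and 1.97% held 3 or more. Gclm also held 3 matches, of which 1 shares 3 bases with its antioxidant element match, and Srxn1 held 1. A match describes letters and is not a binding site.

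The antioxidant response element core, searched as TGACNNNGC on both strands, is shown for the members that held it, with 10 bases on either side and the core in capitals.
Nfe2l2: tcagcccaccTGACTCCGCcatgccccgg
Gclm: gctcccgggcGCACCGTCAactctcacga
Txnrd1: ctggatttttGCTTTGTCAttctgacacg
Srxn1: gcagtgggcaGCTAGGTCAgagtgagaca
Mt2: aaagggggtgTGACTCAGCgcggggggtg

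Each of these 5 genes held 1 match, for Txnrd1 in 1 of its 3 RefSeq promoters, whereas 12.4% of all promoters held it. Promoters were matched for 8 of the 10 members, all but Hmox1 and Gclc. The core was not among the letters of the windows of Mt1, Nqo1 and Cat, and letters outside the windows were not searched.

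Between young and old vehicle females 4 of 10 members were called at an FDR under 0.05, a share near the 31.8% of all genes tested that were called there. Of these, 3 were higher in old females (Hmox1, Gclc and Txnrd1; 16.8% of all genes tested) and 1 was lower (Cat; 15.0%). In males 0 of 10 were called with age by edgeR, beside 3.69% of all genes. Of the members 2 had an unadjusted p under 0.05 (Nfe2l2 and Hmox1), beside 3007 of all 13755 genes tested. With HDM201 0 of 10 members were called by edgeR in old females, beside 5.25% of all genes. Nfe2l2, Hmox1 and Nqo1 had an unadjusted p under 0.05 there, beside 3247 of all 14445 genes tested. In old females 0 of 10 were without overlap between vehicle and HDM201 mice, beside 9.94% of all genes, and in males 0 of 10 between young and old, beside 13.6%. In old males 0 of 10 were called with HDM201, beside 0.00709% of all genes, which is 1 gene. Of the members Gclm alone had an unadjusted p under 0.05 there, beside 1710 of all 14109 genes tested. DESeq2 and limma on FPKM also called 0 of 10 in both HDM201 comparisons and with age in males. In young vehicle mice 3 of 10 were higher in females (Nqo1, Nfe2l2 and Hmox1), beside 5.63% of all genes higher and 10.5% called in either direction. The old vehicle mice of each sex serve in both the age and the HDM201 comparison, so these values are not independent.

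**Figure D1:**
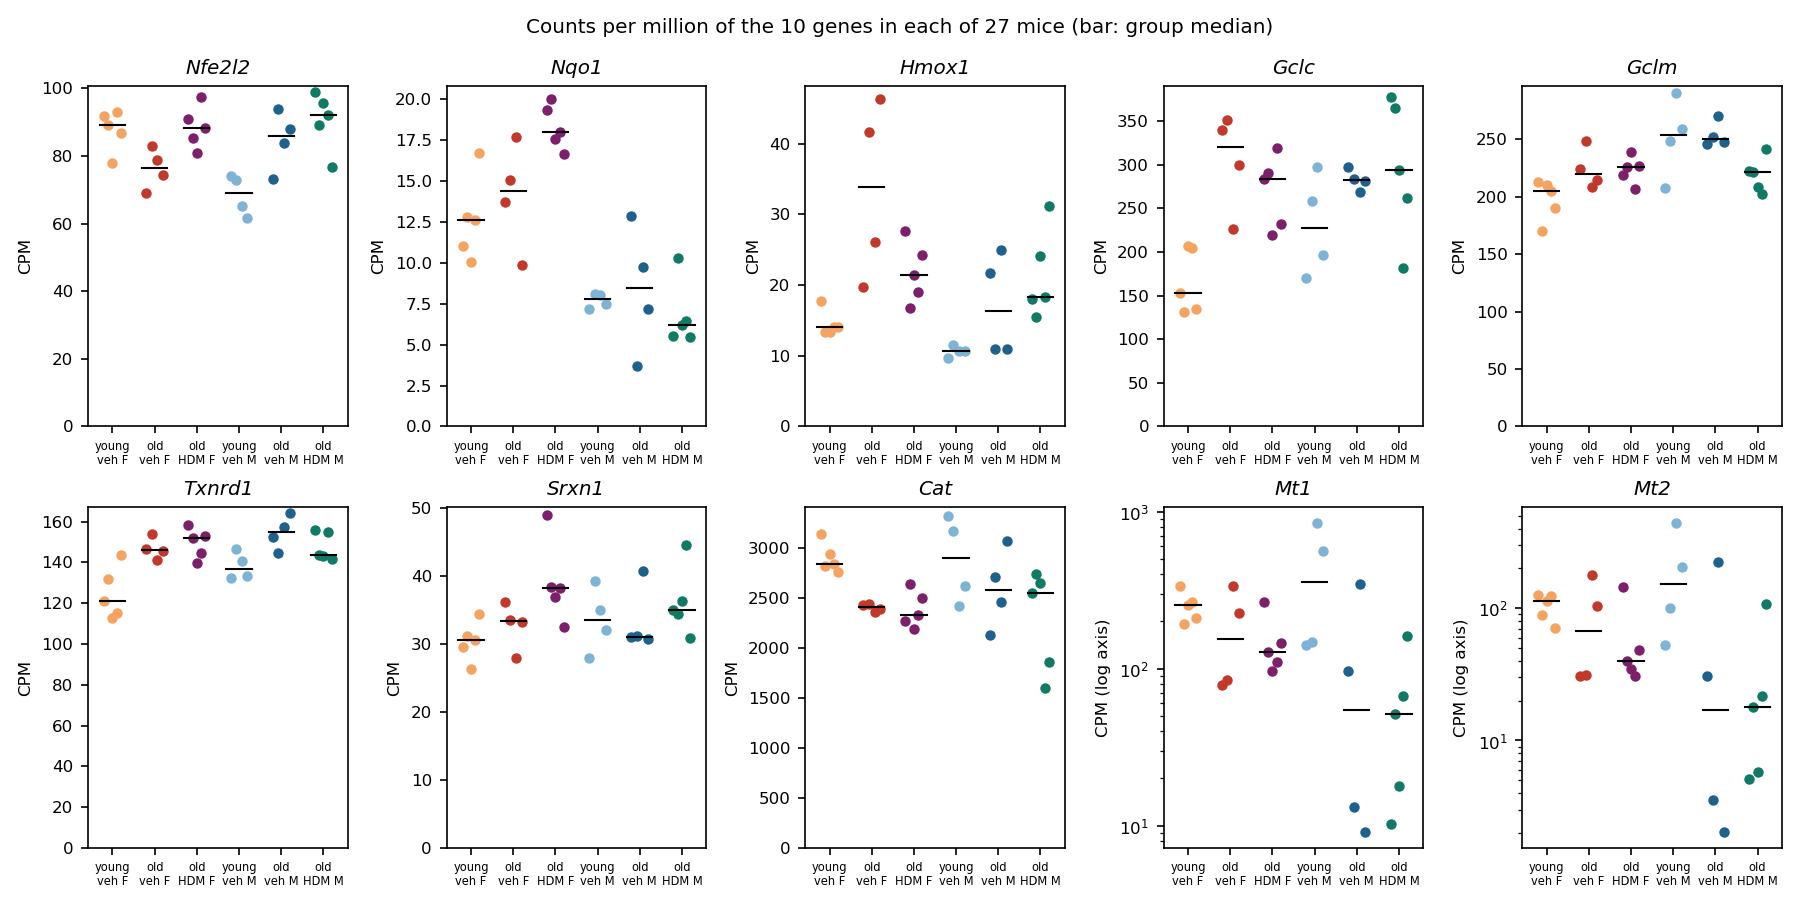
CPM of each member (vertical axis) in the 27 mice with counts, 1 point a mouse, by group, with a bar at the group median; veh is vehicle, HDM is HDM201, F female and M male. The axis starts at 0 except for Mt1 and Mt2, which have a log axis and span 9.07 to 845 CPM and 2.02 to 442 CPM.

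**Figure D2:**
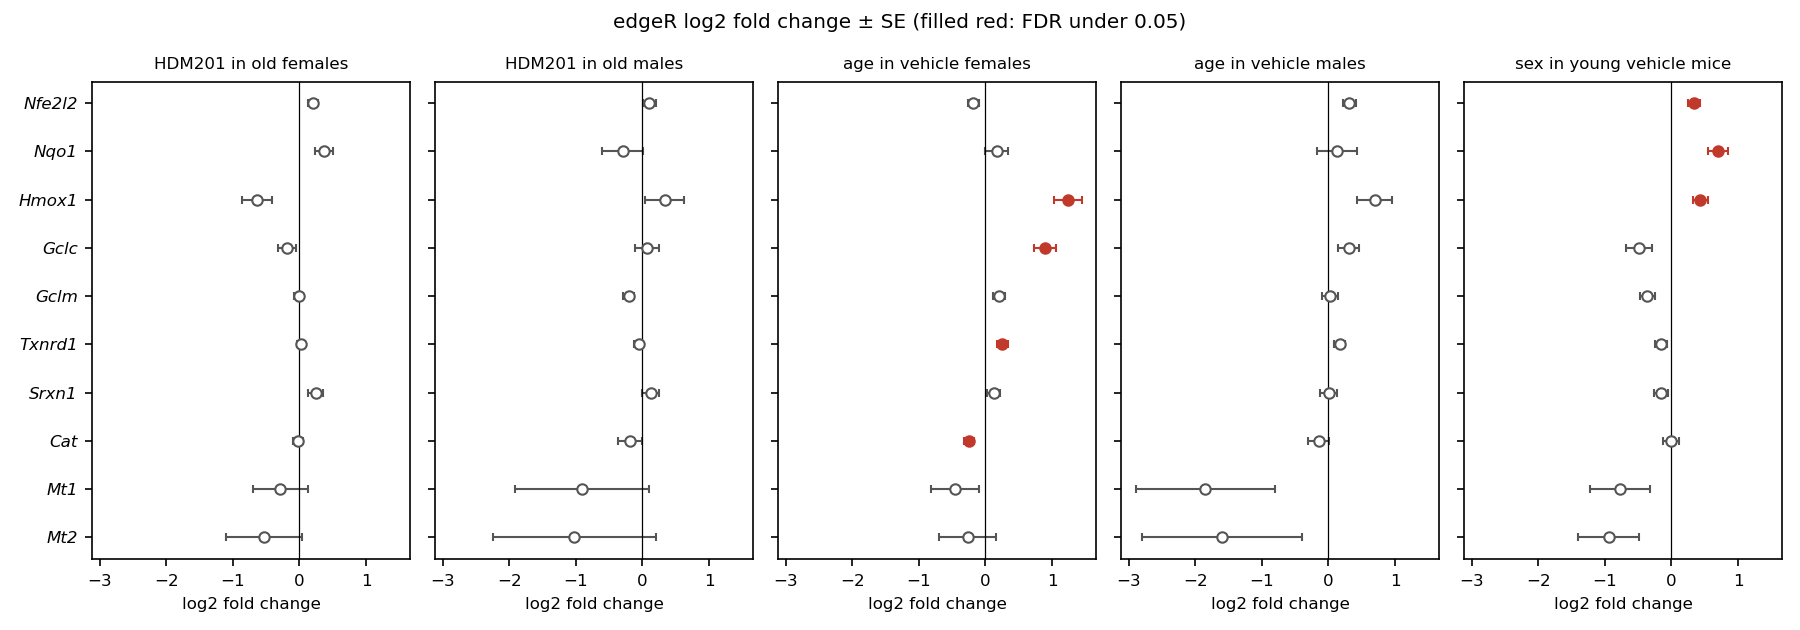
Log2 fold change ± SE of each member in 5 comparisons fitted by edgeR on their own groups (HDM201 over vehicle, old over young, female over male). Filled red points have an FDR under 0.05: 4 members with age in females, 3 between the sexes in young mice and 0 elsewhere; the bars of Mt1 and Mt2 are the widest.

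Hmox1 (chr8:75093621-75100589, + strand) encodes heme oxygenase 1, which breaks heme down to biliverdin, iron and carbon monoxide. Young vehicle females had 13.3, 13.4, 14.0, 14.1 and 17.7 CPM. Old vehicle females had 19.8, 26.2, 41.7 and 46.3 CPM, with every old mouse above every young one. Hmox1 was 2.35-fold higher in old females than in the young (log2 fold change 1.23 ± 0.21 (SE), edgeR FDR = 0.00109), and remained called without any 1 of the 9 mice (log2 fold change 1.04 to 1.42). With HDM201 the old females had 16.7, 19.1, 21.4, 24.3 and 27.6 CPM, a range that overlaps that of old vehicle females at its low end (log2 fold change -0.63 ± 0.23 (SE), edgeR FDR = 0.122). That difference ran from -0.81 to -0.43 over the 9 fits that leave out 1 mouse (FDR up to 0.313). It was called in 1 of them, without old vehicle female 1, the lowest of its group (-0.81, FDR = 0.0404), and when no filter on low counts was used (-0.63, FDR = 0.0474).

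In males Hmox1 was lower in young mice, at 9.75, 10.6, 10.6 and 11.6 CPM. Old vehicle males split into a pair at 10.9 CPM each and a pair at 21.7 and 24.9 CPM, and the first pair lay within the young range (log2 fold change 0.69 ± 0.26 (SE), edgeR FDR = 0.16). Old HDM201 males had 15.4, 18.0, 18.3, 24.2 and 31.1 CPM (log2 fold change 0.33 ± 0.29 (SE), edgeR FDR = 0.659). The HDM201 difference in females minus that in males was -0.96 ± 0.40 (SE), which was not called (edgeR FDR = 0.205). Young females lay above young males without overlap (log2 fold change 0.43 ± 0.11 (SE), edgeR FDR = 0.0327). This sex difference was lost without young male 1, 3 or 4 or young female 1 or 5 (0.36 to 0.45, FDR = 0.0556 to 0.0752), and in FPKM with young vehicle male 5 included it was 0.0069 on the log2 scale (limma FDR = 1.00). The call was also lost in the fit of all 6 groups (0.44, FDR = 0.246) and with the replicate block (0.43, FDR = 0.112).

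Kupffer cells, the macrophages of liver, are a main site of Hmox1 expression, and 11 macrophage markers moved beside it. Their summed level was 297 to 427 CPM in young vehicle females, 461 to 909 CPM in old vehicle females and 274 to 445 CPM in old HDM201 females. In males it was 127 to 276 CPM in young vehicle, 200.3 to 597 CPM in old vehicle and 284 to 731 CPM in old HDM201 mice. With age in females 10 of 11 markers were called higher, with HDM201 in old females 10 of 11 were called lower, with age in males 3 were higher, with HDM201 in males 0 were called, and 8 were higher in young females than in young males. Of all genes, 16.8% were called higher with age in females, 2.76% with age in males and 5.63% in young females over young males. With HDM201 in old females 2.90% of all genes were called lower. No marker was at 0 throughout a group. The part of these markers in the Hmox1 values was not tested, and in bulk RNA a different number of cells of a type and a different amount of RNA per cell cannot be told apart.

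**Figure D3:**
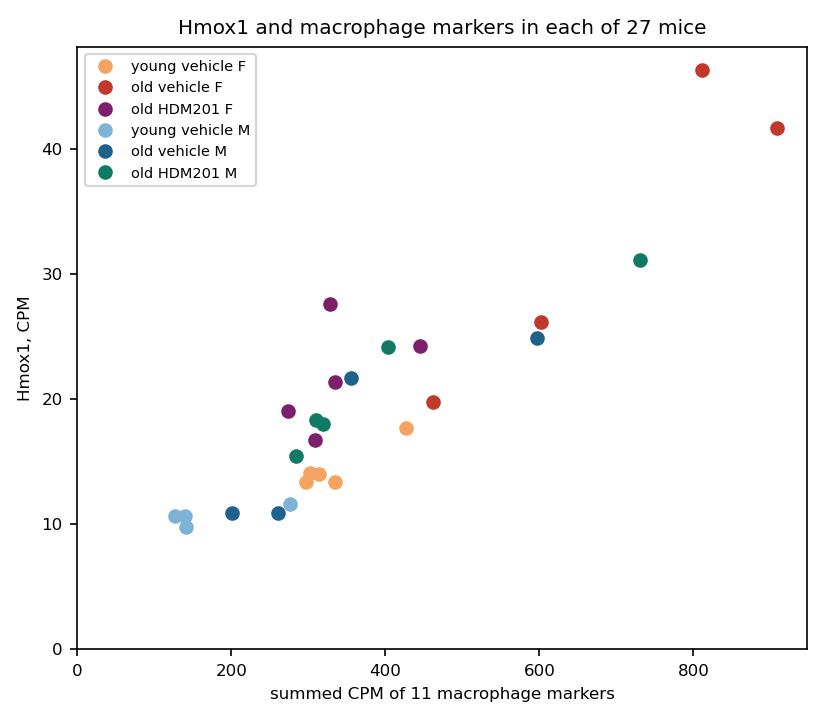
Hmox1 CPM (vertical axis) against the summed CPM of 11 macrophage markers (horizontal axis) in the 27 mice with counts, coloured by group; both axes start at 0. Young males sit at the lower left, with at most 276 CPM of markers and 11.6 CPM of Hmox1, and old vehicle females 2 and 4 at the upper right at 41.7 and 46.3 CPM of Hmox1.

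Gclc and Gclm encode the catalytic and the modifier subunit of glutamate-cysteine ligase, which makes the first step of glutathione synthesis. Gclc (chr9:77754535-77794485, + strand) had 131, 134, 153, 205 and 207 CPM in young vehicle females. Old vehicle females had 226, 300.0, 340.4 and 351 CPM, all above the young mice. Gclc was thus 1.86-fold higher with age in females (log2 fold change 0.90 ± 0.16 (SE), edgeR FDR = 0.0017) and was called without any 1 mouse (0.82 to 1.01). Old HDM201 females had 219, 232, 283, 290.2 and 319 CPM, within or just below the range of old vehicle females (log2 fold change -0.19 ± 0.14 (SE), edgeR FDR = 0.466).

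Young vehicle males had 170.1, 197, 258 and 297 CPM of Gclc and old vehicle males 269, 281, 284 and 298 CPM, which overlapped (log2 fold change 0.30 ± 0.16 (SE), edgeR FDR = 0.304). The age difference in females minus that in males was 0.60 ± 0.25 (SE) and was not called (edgeR FDR = 0.17). Old HDM201 males ranged more widely, with 182, 262, 294, 365 and 378 CPM (log2 fold change 0.07 ± 0.18 (SE), edgeR FDR = 0.9). In young mice Gclc was lower in females than in males at -0.49 ± 0.19 (SE), which passed the threshold without young male 1 (-0.61, FDR = 0.0469) and not with all mice (edgeR FDR = 0.114).

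Gclm (chr3:122245557-122270732, + strand) had the smaller age difference of the pair in females, and the difference between the 2 genes was not tested. Old vehicle females had 208, 215, 224 and 249 CPM against 170.1, 190.0, 205, 210.2 and 213 CPM in the young females, so that the groups overlapped (log2 fold change 0.20 ± 0.09 (SE), edgeR FDR = 0.104). In FPKM, which Cufflinks estimates from transcripts, the same mice were separated, with 133 to 170.3 FPKM in old and 82.8 to 110.2 FPKM in young females (limma log2 difference 0.59, FDR = 0.00367). The call for Gclm with age in females depends on which of the deposited tables is used, and Gclm overlaps 2 other annotated genes.

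Among old males, Gclm was the 1 member of 10 whose vehicle and HDM201 mice did not overlap, beside 4.03% of all genes. The vehicle males had 246, 248, 253 and 270.1 CPM and the HDM201 males 202, 208, 221, 222 and 242 CPM (log2 fold change -0.21 ± 0.08 (SE), edgeR FDR = 0.356). In young mice, males had 207, 248, 259 and 291 CPM, and the female minus male difference was -0.36 ± 0.11 (SE; edgeR FDR = 0.0614). DESeq2 (-0.37, FDR = 0.0193), the fit of all 6 groups (-0.35, FDR = 0.00720) and the fit without young male 1 (-0.44, FDR = 0.0179) called it.

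Txnrd1 and Srxn1 act in the thioredoxin and peroxiredoxin arm. Txnrd1 (chr10:82833951-82897712, + strand) encodes the cytosolic thioredoxin reductase, which uses NADPH to reduce thioredoxin. It varied least of the members, by 1.46-fold between the lowest and the highest of the 27 mice. Young vehicle females had 113, 115, 121, 132 and 144 CPM and old vehicle females 141, 145, 147 and 154 CPM, with 1 young mouse inside the old range (log2 fold change 0.25 ± 0.09 (SE), edgeR FDR = 0.0381). The call was lost without any 1 of the old vehicle females or without young female 1, 3 or 4 (0.21 to 0.27, FDR = 0.0507 to 0.108). HDM201 left Txnrd1 within -0.06 and 0.02 on the log2 scale in males and females, with SEs of 0.07 and 0.06. Txnrd1 overlaps 3 other annotated genes.

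Srxn1 (chr2:152105516-152111376, + strand) encodes sulfiredoxin, which repairs over-oxidized peroxiredoxins. It ranged from 26.4 to 49.0 CPM over the 27 mice and was not called in any comparison. Old HDM201 females were the highest group at 39.0 ± 6.07 (SD, n = 5) CPM against 32.8 ± 3.46 (SD, n = 4) CPM in old vehicle females (log2 fold change 0.24 ± 0.11 (SE), edgeR FDR = 0.23).

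Nqo1 (chr8:107388225-107403206, - strand) encodes the NAD(P)H quinone dehydrogenase, the reference target of NRF2, which was the lowest member by median level. Young vehicle females had 10.1, 11.05, 12.6, 12.8 and 16.7 CPM and young vehicle males 7.16, 7.49, 8.04 and 8.13 CPM. Nqo1 was 1.63-fold higher in young females than in young males, without overlap (log2 fold change 0.70 ± 0.15 (SE), edgeR FDR = 0.0115), and this held without any 1 of the 9 mice (0.59 to 0.78). Nqo1, Nfe2l2 and Hmox1 were the 3 of 10 members without overlap between the sexes, beside 12.8% of all genes. For Nqo1 limma on FPKM gave 0.65 with an FDR of 0.05003, just over the threshold. Of the 10 members, Nqo1 had the smallest FDR between the sexes. The sexes also lay apart in old HDM201 mice, where the lowest female had 16.7 CPM and the highest male 10.3 CPM, a contrast that was not tested.

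Old vehicle females had 9.89, 13.7, 15.1 and 17.7 CPM of Nqo1 and old HDM201 females 16.7, 17.6, 18.0, 19.4 and 20.0 CPM, so the treated mice lay at or above the upper end of the vehicle range and were closer together (log2 fold change 0.37 ± 0.14 (SE), edgeR FDR = 0.128). Without old vehicle female 3, the highest of its group, the difference was called (0.50, FDR = 0.0431), as in 1 of 9 fits that leave out 1 mouse, and without old vehicle female 4, the lowest, it was 0.23 (FDR = 0.236). Old vehicle males had 3.71, 7.16, 9.75 and 12.9 CPM and old HDM201 males 5.47, 5.53, 6.21, 6.44 and 10.3 CPM (log2 fold change -0.30 ± 0.31 (SE), edgeR FDR = 0.72). The HDM201 differences of Nqo1 had opposite signs in the sexes, and their difference was 0.67 ± 0.36 (SE), which was not called (edgeR FDR = 0.326). With age Nqo1 was not called in females (0.17 ± 0.17, FDR = 0.48) or in males (0.13 ± 0.30, FDR = 0.836).

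Nfe2l2 (chr2:75675513-75704641, - strand) is regulated largely at the level of its protein, which RNA-seq does not measure. Its RNA differed little between mice, from 61.7 to 98.8 CPM. Young vehicle females had 77.8, 86.7, 89.0, 91.7 and 93.1 CPM and young vehicle males 61.7, 65.3, 72.9 and 74.0 CPM, so every young female was above every young male (log2 fold change 0.34 ± 0.09 (SE), edgeR FDR = 0.0302). The call was lost without young male 3 or 4 or young female 1, 2, 4 or 5 (0.30 to 0.35, FDR = 0.0573 to 0.0941). It was also lost with no filter on low counts (0.34, FDR = 0.0594) and with the replicate block (0.35, FDR = 0.0865).

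The age differences of Nfe2l2 RNA had opposite signs in the sexes. Old vehicle females had 69.0, 74.2, 78.7 and 83.0 CPM, lower than young females on average (log2 fold change -0.18 ± 0.08 (SE), edgeR FDR = 0.11). Old vehicle males had 73.0, 83.9, 88.1 and 93.9 CPM, higher than young males on average (log2 fold change 0.32 ± 0.10 (SE), edgeR FDR = 0.107). Neither difference was called on its own, but the difference between them was, at -0.48 ± 0.13 (SE) for females minus males (edgeR FDR = 0.0425), the 1 member of 10 called in this interaction beside 3.92% of all genes, 1.90% in this direction. It was lost in 13 of the 17 fits that leave out 1 mouse, namely old vehicle female 1, 3 or 4, old vehicle male 3, 4 or 5, young male 2, 3 or 4, or young female 1, 2, 4 or 5 (-0.43 to -0.52, FDR = 0.0507 to 0.0884). Because the age step is longer in males and tied to substrain, the interaction does not compare like with like in age.

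With HDM201, Nfe2l2 had 80.8, 85.3, 88.2, 90.8 and 97.3 CPM in old females (log2 fold change 0.21 ± 0.07 (SE), edgeR FDR = 0.122) and 76.7, 89.1, 92.1, 95.6 and 98.8 CPM in old males (log2 fold change 0.10 ± 0.10 (SE), edgeR FDR = 0.693). Both groups overlapped their vehicle group.

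Cat (chr2:103453849-103485160, - strand) encodes catalase, the peroxisomal enzyme that removes hydrogen peroxide, and was the highest member by median FPKM. Young vehicle females had 2755, 2820.2, 2839, 2931 and 3132 CPM and old vehicle females 2354, 2383, 2431 and 2439.9 CPM, so the old mice lay tightly together below all young mice (log2 fold change -0.25 ± 0.08 (SE), edgeR FDR = 0.0271). Hmox1, Gclc and Cat were the 3 of 10 members without overlap between young and old females, beside 25.8% of all genes. The call for Cat was lost without any 1 of the 4 old vehicle females (-0.24 to -0.26, FDR = 0.0568 to 0.0698) and in limma on FPKM (-0.12, FDR = 0.113). It was also lost in the fit of all 6 groups (-0.27, FDR = 0.133), with the replicate block (-0.26, FDR = 0.105) and with no filter on low counts (-0.26, FDR = 0.0621).

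HDM201 females had 2186, 2267, 2322, 2493 and 2641 CPM of Cat, around the old vehicle mice (log2 fold change -0.02 ± 0.07 (SE), edgeR FDR = 0.902). Males spread more, from 2418 to 3314 CPM in young vehicle, 2128 to 3070 CPM in old vehicle and 1593 to 2734 CPM in old HDM201 mice, and no male comparison of Cat was called (-0.15 ± 0.16, FDR = 0.634 with age; -0.18 ± 0.18, FDR = 0.704 with HDM201).

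The metallothionein genes Mt1 and Mt2 were the members that varied most between mice of a group. Over the 27 mice the highest Mt1 was 93.2 times the lowest and the highest Mt2 219 times the lowest. No other member exceeded the 5.39-fold of Nqo1.

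Among old vehicle males, Mt1 had 9.07, 13.2, 95.9 and 347 CPM and Mt2 2.02, 3.54, 30.5 and 224 CPM, a range of 38.3-fold and of 111-fold between 4 mice. Old HDM201 males had 10.3, 18.0, 51.7, 66.8 and 161 CPM of Mt1 and 5.08, 5.75, 18.0, 21.6 and 108 CPM of Mt2. Young vehicle males had 142, 149, 563 and 845 CPM of Mt1 and 52.4, 99.7, 205 and 442 CPM of Mt2. Old vehicle male 4 stood high in its group, males 3 and 5 low, and the lowest young male was above all but 2 of the old males in Mt1.

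In females the spread was narrower. Young vehicle females had 193, 209, 255, 264 and 336 CPM of Mt1 and 70.7, 89.1, 114, 125 and 127 CPM of Mt2. Old vehicle females fell into a low pair and a high pair, with 78.8, 84.7, 226 and 334 CPM of Mt1 and 31.0, 31.2, 104 and 178 CPM of Mt2. Old HDM201 females had 96.6, 110.5, 127, 146 and 266 CPM of Mt1 and 31.0, 34.7, 39.9, 48.0 and 145 CPM of Mt2, where female 1 was the highest for both genes.

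With this spread, log2 fold changes of more than 1 were not called. With age in males Mt1 had log2 fold change -1.85 ± 1.04 (SE), edgeR FDR = 0.334, and Mt2 log2 fold change -1.60 ± 1.204 (SE), edgeR FDR = 0.475. With HDM201 in old males Mt1 had log2 fold change -0.91 ± 1.01 (SE), edgeR FDR = 0.737, and Mt2 log2 fold change -1.02 ± 1.22 (SE), edgeR FDR = 0.763. Single mice moved these values. Without old vehicle male 4 the HDM201 difference in males turned to 0.65 for Mt1 and 1.40 for Mt2, and without old HDM201 male 5 it was -1.66 and -2.36. With age in males the fits that leave out 1 mouse ran from -3.43 (without old vehicle male 4) to -1.28 (without young vehicle male 3) for Mt1 and from -4.05 to -0.87 for Mt2, with the same mice at the ends. In females the values were smaller, at -0.45 ± 0.36, FDR = 0.364 for Mt1 with age and -0.29 ± 0.42, FDR = 0.734 with HDM201, the latter from -0.60 to 0.19 over the fits that leave out 1 mouse. For Mt1 with age in females, the difference was called without old vehicle female 3 (-0.93, FDR = 0.0412). Between the sexes in young mice, Mt2 was at -0.94 ± 0.46, FDR = 0.204 and was called without young male 1 (-1.26, FDR = 0.0380).

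The pair moved together from mouse to mouse. With the group means removed, log2(CPM + 1) of Mt1 and Mt2 correlated at Pearson's r = 0.98 and Spearman's rho = 0.98 over 27 mice, each with a two-sided p of 1e-05 by 100000 permutations within groups, the smallest they can give, and an adjusted p of 0.00045 over the 45 pairs of members. Without the 2 mice farthest from the median in Mt1, r was 0.96. Mt1 exceeded Mt2 in every mouse, by 1.49 to 4.50 times in CPM with a median of 2.70, a ratio that the longer Mt1 exons also enter. The genes are close paralogs, and how the counting treated reads that fit both is not given. Of the other 44 pairs, Txnrd1 with Srxn1 came closest by r (r = 0.55, rho = 0.54, 0.49 without 2 mice, adjusted permutation p = 0.0686 for r). Mt1 with Cat had r = -0.61 (rho = -0.66, -0.63 without 2 mice, adjusted p = 0.195 for r). Mt2 with Cat had r = -0.57 (rho = -0.66, -0.58 without 2 mice, adjusted p = 0.195 for r). By rho these 3 pairs shared an adjusted permutation p of 0.0773. Hmox1 with Mt2 had r = 0.61 (rho = 0.57, adjusted p = 0.195 for r and 0.158 for rho).

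**Figure D4:**
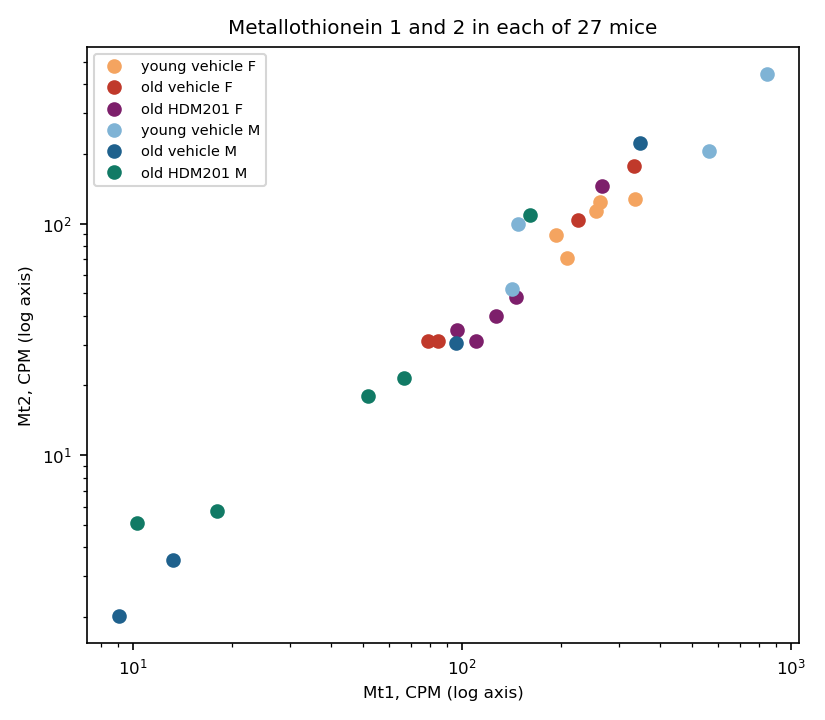
Mt2 CPM (vertical, log axis) against Mt1 CPM (horizontal, log axis) in the 27 mice with counts, coloured by group. The points lie along 1 line from 9.07 and 2.02 CPM in old vehicle male 5 to 845 and 442 CPM in young vehicle male 3, and old males cover most of its length.

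Acute-phase genes, which liver raises in inflammation, are given beside the metallothioneins, first in males. Young vehicle male 3, the highest for Mt1 and Mt2, had 2661 CPM of Saa1, serum amyloid A1, and young vehicle male 1, the lowest of its group, had 20.7 CPM. The orders were not the same throughout, as young vehicle male 2 had 793 CPM of Saa1 with 149 CPM of Mt1 and male 4 had 839.9 CPM of Saa1 with 563 CPM of Mt1. The summed acute-phase level was 24936 CPM in male 2 and 19631 CPM in male 4. Old HDM201 male 5, the highest of its group, had 1525 CPM of Saa1, against 60.9 to 206 CPM in the other 4. Old vehicle male 4, the highest of its group for Mt1, had 96.4 CPM, against 45.9 to 54.7 CPM in the other 3. The summed level of the 13 acute-phase genes was 12446 to 34741 CPM in young vehicle males, 12262 to 16993 CPM in old vehicle males and 14894 to 33549.7 CPM in old HDM201 males, against 11969 to 23900 CPM in females. Females were mixed as well. Old vehicle female 3, the highest of its group for Mt1, had a sum of 17294.6 CPM, and female 1, the lowest, had 17594.7 CPM. Old HDM201 female 1, the highest of its group for Mt1, also had the highest sum of its group. Of these 13 genes 7 were called higher with age in females, beside 16.8% of all genes. With HDM201 in females 1 was called lower, beside 2.90%. In males 0 were called with age or HDM201, beside 3.69% and 0.00709% of all genes. In young mice 6 were called lower in females than in males and 1 higher, beside 4.91% and 5.63% of all genes. In the interaction of sex and age 6 were called higher, beside 2.02%.

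The 11 glucocorticoid-responsive genes summed to 3314 to 8068 CPM over the males and 3789 to 8660 CPM over the females. In this list 3 genes were called lower with age in females, 3 lower with HDM201 in females, 1 lower with age in males and 0 with HDM201 in males. Of all genes, 15.0% were called lower with age in females, 2.90% with HDM201 in females and 0.931% with age in males. The part of either list in the metallothionein values was not tested.

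The 2 males without counts carried the most extreme values of several members, and their depth is unknown here. Old vehicle male 1 had 78.3 FPKM of Srxn1, against 10.1 to 13.3 FPKM in the other 4 old vehicle males and at most 16.9 FPKM in the other 28 mice. It had 60.8 FPKM of Hmox1 (6.17 to 15.4 in its group), 30.4 FPKM of Nqo1 (2.37 to 7.95) and 92.6 FPKM of Txnrd1 (41.3 to 43.3). Gclc, at 144 FPKM, and Gclm, at 192 FPKM, were also above all other mice. Nfe2l2, Mt1, Mt2 and Cat lay within the range of its group. In all, 6 of 10 members were above every other mouse, and 0 below, beside 34.3% and 2.38% of the 15173 genes compared.

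Other NRF2 targets stood high in the same animal, with 26 of 35 above every other mouse. These include the glutathione transferases Gstm1, at 7097 FPKM against 1458 to 2642 in its group, and Gsta1, at 317 FPKM against 5.53 to 29.9, which were chosen after their values were seen. Of all genes compared, 34.3% were above every other mouse in this animal and 2.38% below, the shares beside which the counts here stand. Of the 12 regulators 6 were above every other mouse, Keap1 and Mafk among them. Of the 11 macrophage markers 8 were above every other mouse, as were 3 of 5 lymphocyte, 2 of 5 stellate, 1 of 5 cholangiocyte and 1 of 5 endothelial markers and 0 of the erythroid and neutrophil markers. The B cell genes Ms4a1, at 28.8 FPKM against 0.234 to 0.494 in its group, and Cd79a, at 42.5 FPKM against 1.34 to 2.24, were among them. Of the 7 hepatocyte markers Alb was below every other mouse and 0 were above, and 1 endothelial marker was below. Their part in the members' values was not tested.

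Young vehicle male 5 had the highest metallothionein values and low values of many other NRF2 targets. It had 6334 FPKM of Mt1, against 405 to 2286 FPKM in the other young males, and 4449 FPKM of Mt2, against 192 to 1585 FPKM, both above all other mice. Hmox1, at 29.6 FPKM, was above its group of 5.76 to 6.94 FPKM, as was Txnrd1, at 46.3 against 36.1 to 42.3 FPKM. Nqo1 (2.89 FPKM) and Gclc (34.0 FPKM) were below their group, and Gclm and Srxn1 lay within it. Nfe2l2 (19.8 FPKM) and Cat (567 FPKM) were below every other mouse, and Mt1 and Mt2 were the 2 above, beside 19.0% of genes below and 3.88% above. Of the other NRF2 targets 20 of 35 were below every other mouse and 0 above. Among the acute-phase genes 12 of 13 were also above every other mouse, with Saa1 at 26524 FPKM against 43.2 to 5783 FPKM in its group. All 11 macrophage markers were above its group, beside 25.4% of all genes, and none was above every other mouse.

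**Figure D5:**
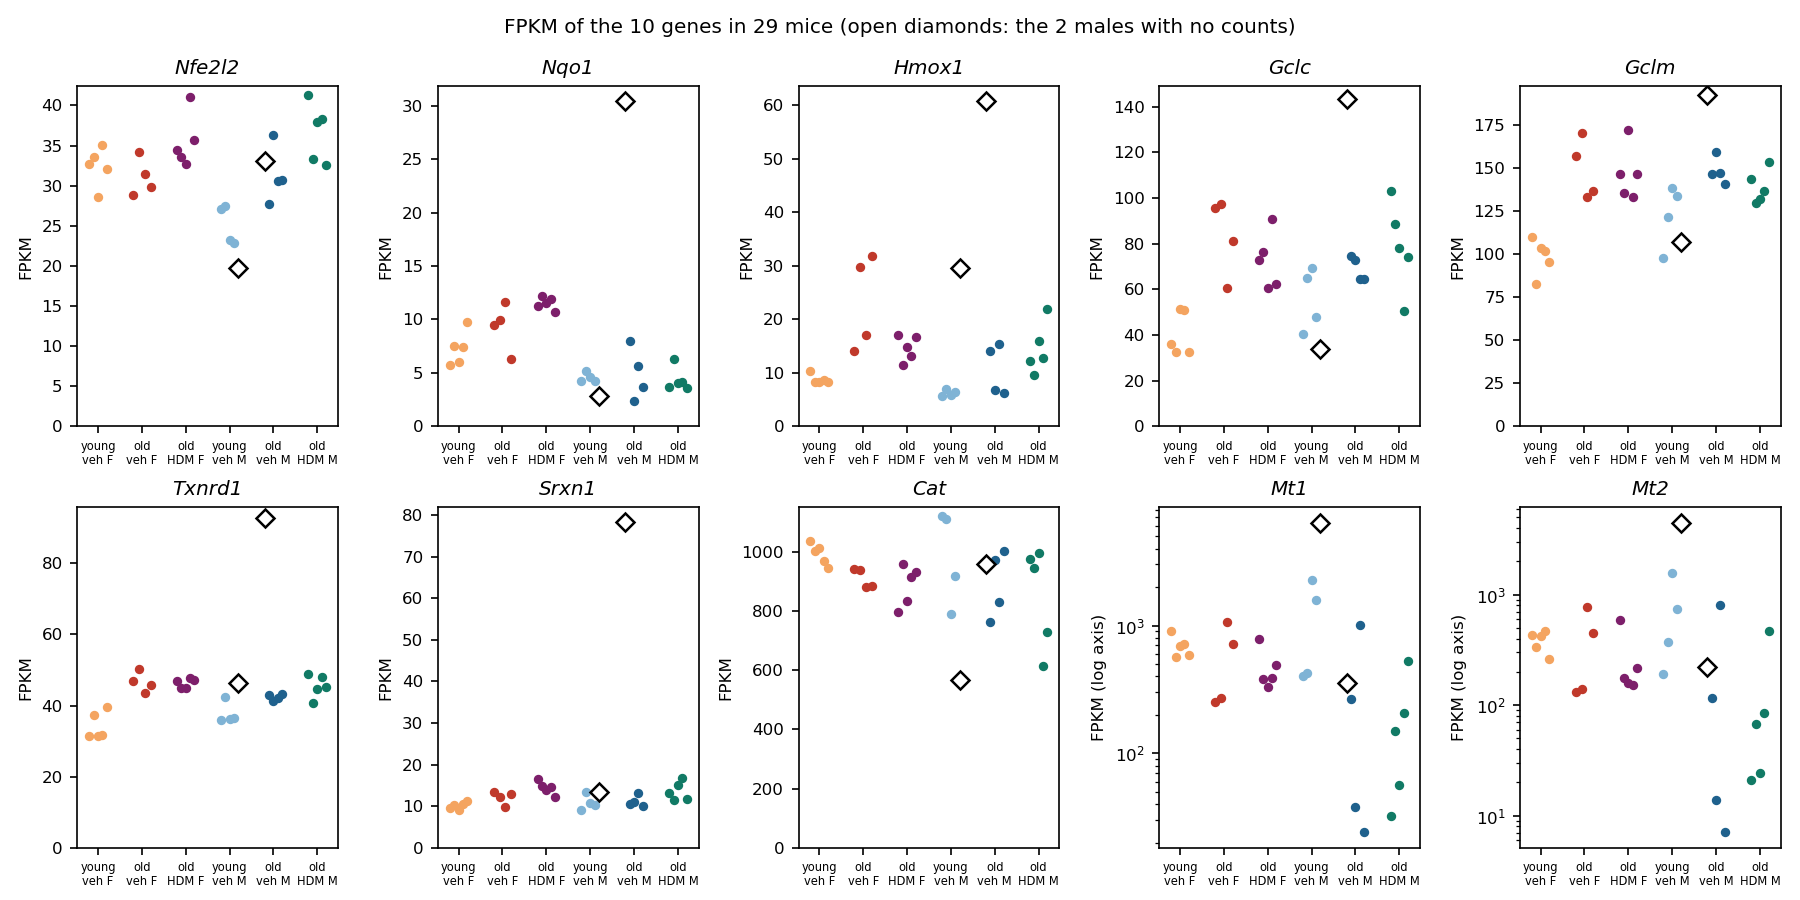
FPKM of each member (vertical axis; log axis for Mt1 and Mt2, from 0 for the others) in all 29 mice by group. Open diamonds are the 2 males with no counts: old vehicle male 1 tops 6 panels, with Srxn1 at 78.3 FPKM, and young vehicle male 5 tops Mt1 and Mt2 at 6334 and 4449 FPKM.

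These mice bear on the comparisons in males, which rest on 4 vehicle mice a group. In limma on log2(FPKM + 1) with both included, 0 of 10 members were called with age or HDM201 in males, and 41 genes were called with age in males against 155 without them. Between the sexes in young mice 1 member was called with young vehicle male 5 and 2 without it.

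Other genes of the pathway are given as 5 lists, read with age in females against 16.8% of all genes called higher and 15.0% lower. No list was tested as a whole. Of 35 other NRF2 targets tested 8 were higher and 6 lower with age in females. Abcc4, an efflux transporter, was higher (1.87 ± 0.23, FDR = 0.000152), as was Osgin1, an oxidative stress-induced growth inhibitor (1.34 ± 0.30, FDR = 0.00503). Me1, the NADPH-producing malic enzyme, was lower (-1.19 ± 0.33, FDR = 0.0152). Among the 12 regulators 2 were higher and 2 lower. Keap1, chosen after its value was seen, was higher (0.42 ± 0.08, FDR = 0.00228).

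Of 20 other antioxidant enzymes 1 was higher and 4 lower with age in females, the higher being Gpx3, the secreted glutathione peroxidase (1.16 ± 0.14, FDR = 0.000139). Of 11 metal transport genes tested 2 were higher. Of 15 heme and iron genes 2 were higher and 3 lower, with Cd163, the macrophage receptor for haemoglobin bound to haptoglobin, at -1.82 ± 0.29, FDR = 0.000722. Cd163 was lower in old females while Hmox1 and 10 of 11 macrophage markers were higher.

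In males with age, 3 of 35 other NRF2 targets were higher and 0 lower, beside 2.76% of all genes higher and 0.931% lower. They include Gstp2, a Pi-class glutathione transferase with a close paralog (2.48 ± 0.44, FDR = 0.0186), and Osgin1 (0.97 ± 0.17, FDR = 0.0167). Of the 20 antioxidant enzymes 2 were higher, Gpx3 (1.497 ± 0.26, FDR = 0.0162) and Selenow, a selenoprotein (0.54 ± 0.11, FDR = 0.0333). Of the regulators and of the heme genes 1 each was lower, and 0 metal genes were called. Osgin1 and Gpx3 were called higher with age in both sexes.

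With HDM201 in old females 1 regulator, 1 metal gene, 1 heme gene and 1 other NRF2 target were called, beside 2.35% of all genes higher and 2.90% lower, and 0 of 20 antioxidant enzymes. Mafk, a small MAF partner of NRF2, was higher (0.45 ± 0.10, FDR = 0.026), as was Slc39a4, a zinc importer (0.41 ± 0.10, FDR = 0.0404). Tfrc, the transferrin receptor, was lower (-0.44 ± 0.07, FDR = 0.00999), as was Blvrb, a biliverdin reductase downstream of heme oxygenase (-0.28 ± 0.07, FDR = 0.0334). In old males and in the interaction of sex and HDM201, 0 genes of these 5 lists and 0 of 10 members were called by edgeR (background of the interaction 0.107%).

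In the interaction of sex and age, 2 of 35 NRF2 targets were called, beside 2.02% of all genes higher and 1.90% lower, Gstp2 (-2.92 ± 0.62, FDR = 0.0173) and Aox1, an aldehyde oxidase (0.62 ± 0.16, FDR = 0.0374), and 2 of 15 heme genes, Hp, haptoglobin (1.43 ± 0.35, FDR = 0.033), and Cpox, of heme synthesis (0.65 ± 0.17, FDR = 0.0441). Between the sexes in young mice 4 NRF2 targets were higher and 6 lower in females, beside 5.63% and 4.91% of all genes, with G6pdx, which feeds NADPH, at 2.14 ± 0.61, FDR = 0.0428, and Gstp1 at -2.90 ± 0.16, FDR = 2.53e-07. Of the heme genes 1 was higher and 2 lower, with Hamp2, a hepcidin paralog, at 4.28 ± 0.25, FDR = 4.54e-07, and Hp at -1.58 ± 0.28, FDR = 0.0045. Antioxidant enzymes had 2 higher, metal genes 1 higher and 1 lower, and regulators 0.

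Markers of other cell types also differed with age in females: 4 of 5 lymphocyte, 2 of 2 tested neutrophil, 2 of 5 cholangiocyte and 1 of 5 tested erythroid markers were higher, 1 of 5 stellate markers was higher and 1 lower, and 1 of 5 endothelial and 1 of 7 hepatocyte markers were lower. With HDM201 in old females 2 of 5 cholangiocyte markers were higher and 1 of 7 hepatocyte markers was lower, and 0 of the lymphocyte, neutrophil, erythroid, stellate and endothelial markers were called. Of all genes, 16.8% were called higher and 15.0% lower with age in females. With HDM201 in old females the shares were 2.35% higher and 2.90% lower. The part of these cell types in the members' values was not tested.

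Genes most like each member were ranked by Pearson's r of log2(CPM + 1) with group means removed, over 27 mice that share libraries and 12774 genes with a mean of at least 1 CPM, as a description. Those of Hmox1 were Fyb (r = 0.89, rho = 0.87), Lgals3 (r = 0.89, rho = 0.82), Wfdc17 (r = 0.88, rho = 0.84). Those of Gclc were Hsd3b7 (r = 0.89, rho = 0.88), Pdgfc (r = 0.89, rho = 0.87), Sgpl1 (r = 0.88, rho = 0.86), and of Cat Ces1e (r = 0.89, rho = 0.89), Ugt3a2 (r = 0.89, rho = 0.84), Car3 (r = 0.89, rho = 0.86).

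The nearest genes of the metallothioneins after each other were, for Mt1, Cfi (r = 0.79, rho = 0.85), Slc22a26 (r = 0.79, rho = 0.74) and, for Mt2, Ccl6 (r = 0.81, rho = 0.73), Cfi (r = 0.80, rho = 0.89). Those of Srxn1 were Sqstm1 (r = 0.75, rho = 0.75), Spock2 (r = 0.72, rho = 0.69), Smtnl2 (r = 0.71, rho = 0.76), where Sqstm1 is also on the regulator list. For Gclm they were Atp1b3 (r = 0.82, rho = 0.75), 2310015A16Rik (r = 0.76, rho = 0.70), Slc17a1 (r = 0.74, rho = 0.72), and for Txnrd1 Pcyt1a (r = 0.76, rho = 0.73), Idh1 (r = 0.76, rho = 0.71), Utp14b (r = 0.72, rho = 0.71).

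For Nqo1 the nearest genes were Bche (r = 0.79, rho = 0.67), Mat1a (r = 0.78, rho = 0.59), Med14 (r = 0.74, rho = 0.73), and for Nfe2l2 Pold2 (r = 0.77, rho = 0.74), Cfap20 (r = 0.72, rho = 0.62), Lpcat3 (r = 0.71, rho = 0.71). Apart from the metallothionein pair, no member was among the 3 genes most like another member.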

How the data were processed

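Whole-liver RNA of 27 mice had counts and that of 29 mice had FPKM values. The deposited counts are not normalized: the authors mapped with STAR (2-pass) to the mouse build mm10, applied SAMtools filters, and used HTSeq to count per gene. The authors made the deposited FPKM values with Cufflinks for visualization, and an empty cell was read as 0. Versions and the strand setting are not given in the sources used here, so overlapping and antisense genes and the paralogs Mt1 and Mt2 are uncertain. The study names DESeq2 for differential expression.

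In R 4.3.3 each of 7 comparisons was fitted to the counts of the groups it compares in edgeR 4.0.16 (filterByExpr at minimum count 10 and minimum total 15, TMM, quasi-likelihood F test), and p-values were adjusted by Benjamini-Hochberg over all genes tested. Genes with an FDR under 0.05 were called. CPM used TMM-scaled totals. The comparisons were HDM201 against vehicle in old mice and old against young vehicle mice in each sex, both interactions with sex (female minus male), and female against male in young vehicle mice. The design assumed 5 old vehicle and 5 young vehicle males, and 4 of each had counts.

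The members and the gene lists (NRF2 regulators, other NRF2 targets, other antioxidant, metal, heme, acute-phase and glucocorticoid-responsive genes, and markers of 8 cell types) were chosen with earlier results of these data known. Named genes are the members, the 3 genes most like each, and per comparison up to 4 called genes of the NRF2, antioxidant, metal and heme lists with the largest absolute log2 fold change; others are marked as chosen later or stand beside a member's values. Alternatives were RLE size factors, DESeq2 1.42.0, no filter, a joint fit of all 6 groups, a block on replicate number, leaving out each mouse, limma 3.58.1 on log2(FPKM + 1) and an FDR of 0.01. The limma fit on mice with counts only was added after seeing the data. On simulated counts for HDM201 in old females (14445 genes), 86% of genes changed by 1 log2 unit and 99% of those changed by 2 were recovered. Of the genes called there, 7.5% had not been changed. Smaller changes were not simulated, and the members ran from -0.63 to 0.37 in this comparison, so their recovery is not known. The lowest count of a member in a mouse was 38 (Mt2) and, for Nqo1, 64, so counting error is part of the spread of the low members.

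Gene coordinates are from GENCODE (GRCm38), and promoters from RefSeq (GRCm38.p6).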

Additional observations from a re-analysis of the deposited data

Results flagged for a closer look

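In 7 of the 60 combinations of member and group, 1 mouse lay far from the others of its group. The rule flags about 1 in 20 groups of independent, normally distributed values. The CPM values need not be so distributed and the members share mice, so the number of flags was not compared with chance. Mt2 was flagged in 3 groups, with 145 CPM in old HDM201 female 1, 224 CPM in old vehicle male 4 and 108 CPM in old HDM201 male 5, and Mt1 in 1, with 266 CPM in old HDM201 female 1. The others were Nqo1 at 10.3 CPM in old HDM201 male 2, Hmox1 at 17.7 CPM in young vehicle female 1 and Srxn1 at 40.9 CPM in old vehicle male 4. All 7 were the highest of their group.

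Nfe2l2 had an age difference that differed between females and males with all mice, at -0.48 on the log2 scale (edgeR FDR = 0.0425). The call was fragile, as it held in 4 of the 17 fits that leave out 1 mouse. It was lost with no filter on low counts, with the replicate block and in limma on FPKM. The age step is longer in males and tied to substrain, so the ages compared are not alike.

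Of the 20 member values in FPKM of the 2 males with no counts, 8 lay above every other mouse. In old vehicle male 1 these were Srxn1 at 78.3 FPKM, Hmox1 at 60.8, Nqo1 at 30.4, Txnrd1 at 92.6, Gclc at 144 and Gclm at 192 FPKM. In young vehicle male 5 they were Mt1 at 6334 FPKM and Mt2 at 4449 FPKM.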

How the results depend on the processing

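The number of members called with HDM201 in old males and in the interaction of sex and HDM201 stayed at 0 under all alternatives that were run. Called members in the other comparisons moved as follows. Without a filter on low counts 1 was called with HDM201 in old females, 2 with age in females and 0 in the interaction of sex and age, against 0, 4 and 1. In one fit of all 6 groups 1 was called with age in males, Nfe2l2 (0.31, FDR = 0.0242), against 0. With an FDR of 0.01, 2 were called with age in females, 0 in the interaction of sex and age and 0 between the sexes in young mice. In limma on FPKM, 0 were called in the interaction of sex and age, also with only the mice that have counts, and 1 between the sexes. With the replicate block 0 were called in the interaction of sex and age and 1 between the sexes in young mice, against 1 and 3. The replicate numbers do not pair the mice, as the deviations of same-numbered mice correlated at -0.22 to 0.22 in 19 pairs with 4 over 0.1, and the replicate block changed the other member counts by at most 1. Leaving out 1 mouse gave 0 to 1 called members with HDM201 in old females, 2 to 4 with age in females, 0 to 1 in the interaction of sex and age and 1 to 5 between the sexes in young mice. No called member changed its sign under any alternative. Over the settings that keep all mice, calls among all genes ranged from 110 to 1329 with HDM201 in old females (758 as reported), 0 to 151 in old males (1), 2513 to 4813 with age in females (4530), 29 to 2007 with age in males (507), 0 to 651 in the interaction of sex and HDM201 (16), 48 to 1129 in that of sex and age (577) and 480 to 2483 between the sexes (1462). The causes were not tested. The wide spread of Mt1 and Mt2 in males, with SEs above 1 log2 unit, limits what can be called there, and the depth of the 2 mice with FPKM alone is unknown.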
